A study of Mus musculus with 3 samples.

Results

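The loci described here are 5419 long noncoding RNAs (lncRNAs) of the NONCODE database that share at least 1 base, on either strand, with a protein-coding gene of GENCODE M21 (mouse genome build GRCm38). They are 22.8% of the 23718 lncRNAs listed in apoptotic bodies (ABs) of the osteoclast lineage. Of 20341 listed NONCODE lncRNAs, 12135 lay over a protein-coding gene, and those with 20 reads or more over the 3 libraries were kept as members, which left out 6716. The limit fell in a dense range, with 201 loci at exactly 20 reads and 207 at exactly 19. A locus near the limit could pass only through the library where the locus was high. Counts of members high in a single library are therefore a description. The sum of the 3 libraries chose the members, so a high or low level of a member is no result, and what is described is how its reads were spread over the libraries, where it lay in its gene, and how the reads of the gene itself behaved.

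ABs are the membrane-bound fragments shed by cells that die by apoptosis. The 3 libraries came from ABs of cells at successive stages of osteoclast formation, all grown from the marrow of C57BL/6 mice aged 11 weeks. Bone marrow macrophages (BMM) had M-CSF at 50 ng/mL for 72 h. Preosteoclasts (pOC) and mature osteoclasts (mOC) then had RANKL at 100 ng/mL with M-CSF at 30 ng/mL, for 24 h and for 72 h or longer. These culture conditions are those of the labels. The study itself gives M-CSF at 50 ng/mL beside RANKL, a shorter time in M-CSF before RANKL and a longer time for mature osteoclasts. Per the labels, apoptosis was induced in every culture with alendronate at 500 μM for 12 h, whereas the methods of the study name staurosporine. The sample titles name the cells and the series names their ABs, and ABs are what they are taken to be here. Each group was 1 library, so no difference between groups could be set against a spread between replicates, and no test of a stage was possible. The intervals below cover counting error only.

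Many NONCODE lncRNAs inside protein-coding genes have a single exon. In general, RNA sequenced from an intron can come from a transcript that is not yet spliced. RNA at the start of a gene can come from transcripts that leave an active promoter in either direction. RNA of the 3' UTR, the stretch after the stop codon, can belong to the mRNA itself or to a separate transcript. The table gives no strand for these loci, so reads of a member and reads of the gene it overlaps cannot be told apart by strand, and each result below is a statement about the locus.

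The reads of the lncRNA and mRNA tables together were 12734764 (BMM), 11865332 (pOC) and 11556957 (mOC), and from here on a run of 3 values stands for the libraries in that order unless it is said to run over the comparisons. The members held 251331, 195494 and 170940 of them, or 1.97%, 1.65% and 1.48%. A locus with 0 reads could still hold up to 3 reads, which is 2.36e-05% to 2.60e-05% of a library. In the mRNA table the 8 osteoclast markers had 573, 1513 and 5901 reads, with Acp5 at 88, 292 and 2157 and Ctsk at 180, 171 and 1001. Of these markers, Calcr was at 0 in each library and Itgb3 went the other way with 6, 3 and 0. The 6 macrophage markers had 17724, 7837 and 9172 reads. Most of these came from Csf1r, with 9870, 2640 and 3902, and Cd68, with 6638, 4794 and 5056, and Mertk rose with 0, 2 and 5. All 5 neutrophil and all 4 erythroid markers were at 0. The 4 lymphocyte markers had 6, 1 and 3 reads, and the 6 stromal, osteoblast and endothelial markers 24, 14 and 49, of which Kdr had 15, 8 and 38. The part of these shifts in cell identity in the results below was not tested.

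The members lay over 3324 genes, of which 2188 held 1 member and 1136 held 2 or more, so members of the same gene are not independent. The median member had 43 reads in all and its gene a median of 1500. The median share of a member in the reads of member and gene together was 3.34%, and 294 members (5.43%) had more reads than their gene. Their lengths ran from 201 to 15915 bases with a median of 2251, and 4619 (85.2%) had a single exon. Another annotated gene lay under 682 members, a lncRNA-type gene under 562 of them and a small RNA gene under 81. More than 1 protein-coding gene lay under 460 members, whose reads were set beside the gene that shared the most bases. Where genes shared equal bases, the first in order of gene identifier was taken. The gene and the position class of such a member then rest on that order.

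By position, 2286 members (42.2%) lay wholly in introns of their gene and held 27.8% of the member reads. Another 961 (17.7%) had 50% or more of their bases in 3' UTRs and held 42.8% of the reads. There were 483 at the gene start, reaching beyond the annotated 5' end, and 235 at the gene end, reaching beyond the 3' end. The remaining 382 were mostly and 1072 partly exonic. The classes were set up after the values had been seen.

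The sequences that bear on these loci come first, because they show what kind of gene start is meant and where a locus cannot be told from a copy elsewhere. For loci at gene starts, the 250 bases before the RefSeq start (GRCm38.p6) are given for the 4 single-exon members with the most reads in pOC-ABs among 62 that were highest in pOC-ABs and covered all of these bases. They belong to Sf3b1 (chr1:55027479-55027728, minus strand), a core splicing factor, Upf3a (chr8:13785365-13785614, plus strand), a factor of nonsense-mediated decay, Nck1 (chr9:100546135-100546384, minus strand), a signalling adaptor, and Gsk3b (chr16:38088751-38089000, plus strand), a kinase of the Wnt and insulin pathways. Capitals mark matches, on either strand, to the CAAT box (CCAAT), the GC box (GGGCGG) or the TATA box (TATAAA).
Sf3b1: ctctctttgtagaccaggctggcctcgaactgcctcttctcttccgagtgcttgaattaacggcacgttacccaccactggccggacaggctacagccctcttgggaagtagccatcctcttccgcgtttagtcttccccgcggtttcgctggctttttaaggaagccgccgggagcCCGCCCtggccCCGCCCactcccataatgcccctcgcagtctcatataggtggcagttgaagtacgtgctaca
Upf3a: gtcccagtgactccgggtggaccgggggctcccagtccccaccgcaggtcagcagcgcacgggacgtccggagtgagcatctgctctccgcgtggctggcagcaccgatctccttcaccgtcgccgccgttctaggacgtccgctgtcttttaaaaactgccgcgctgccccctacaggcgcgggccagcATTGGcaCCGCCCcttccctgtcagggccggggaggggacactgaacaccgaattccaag
Nck1: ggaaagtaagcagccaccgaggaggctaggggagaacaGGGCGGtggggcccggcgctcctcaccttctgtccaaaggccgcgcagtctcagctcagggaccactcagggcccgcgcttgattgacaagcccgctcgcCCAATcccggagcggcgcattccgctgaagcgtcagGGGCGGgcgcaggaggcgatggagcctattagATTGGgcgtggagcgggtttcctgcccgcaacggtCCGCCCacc
Gsk3b: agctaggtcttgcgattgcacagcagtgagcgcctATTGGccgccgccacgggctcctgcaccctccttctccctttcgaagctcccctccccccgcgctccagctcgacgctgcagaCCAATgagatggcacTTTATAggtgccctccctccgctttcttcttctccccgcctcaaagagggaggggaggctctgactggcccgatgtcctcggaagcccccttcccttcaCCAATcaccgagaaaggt

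These stretches held 16, 23, 23 and 15 CG dinucleotides. Among all 32851 RefSeq promoters the median was 6. Over the genes with a member at the start it was 18, with 329 of 465 genes matched to a promoter, and over those with an intron member it was 20, with 963 of 1414 matched. GGGCGG or its reverse complement was present in 68.0% of the 100 matched promoters with a start member highest in pOC-ABs, in 60.5% of those with any start member, in 68.7% of those with a 3' UTR member, in 69.7% of those with an intron member and in 32.7% of all RefSeq promoters. In the same order CCAAT was present in 41.0%, 39.5%, 34.8%, 32.4% and 33.8%, and TATAAA in 7%, 6.08%, 5.56%, 4.78% and 12.4%. A match of letters is no site.

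For the most abundant loci, the sequences show where reads could belong to another gene. Processed pseudogenes, which are copies of mRNAs inserted into the genome, lay under 65 members, and the miRNA-type gene Gm23935 lay inside the most abundant member of all. The first 57 or 60 bases of 4 such genes within a member, read on the strand of the pseudogene or small RNA gene, came from the GENCODE transcripts. They lie at chr16:11144125-11144181 (Gm23935, plus strand), chr6:116173737-116173796 (Gm8203, plus strand), chr9:116041004-116041063 (Gm9385, minus strand) and chr4:43664043-43664102 (Gm12481, plus strand).
Gm23935: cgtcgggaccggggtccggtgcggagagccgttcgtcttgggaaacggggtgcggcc
Gm8203: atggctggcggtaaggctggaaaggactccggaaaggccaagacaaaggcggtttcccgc
Gm9385: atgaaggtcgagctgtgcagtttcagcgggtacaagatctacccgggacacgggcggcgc
Gm12481: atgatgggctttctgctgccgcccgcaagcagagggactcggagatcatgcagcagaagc

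Each printed stretch was also found whole in another annotated gene, that of Gm23935 in Gm24245, that of Gm8203 in H2afz, which encodes a histone H2A variant, that of Gm9385 in Rpl24, which encodes a ribosomal protein, and that of Gm12481 in Serf2. All 357 stretches of 31 bases of Gm8203 were present in H2afz, 411 of 442 of Gm9385 in Rpl24 and all 267 of Gm12481 in Serf2. Of 19 members with 100 reads or more over a processed pseudogene, 13 lay over one with 50% or more of its 31-base stretches in another gene. The reads of these loci are uncertain in origin.

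The most abundant member was NONMMUT025494.2, of 410 bases in an intron of Zc3h7a (chr16:11143906-11144315), with 14139, 16853 and 16791 reads beside 486, 307 and 325 of the gene. It alone held 5.63% of the member reads in BMM-ABs and 9.82% in mOC-ABs, and it is the locus that contains Gm23935. NONMMUT071263.2, over Gadl1 and Gm9385, had 1246, 1256 and 1413 reads while the mRNA of Gadl1 had 0 in every library. NONMMUT047011.2, over Fam221b and Gm12481, had 773, 895 and 719 reads beside 0, 5 and 0 of the gene. NONMMUT058514.2, over Tmcc1 and Gm8203, had 1992, 1412 and 878 reads, lowest in mOC-ABs, beside 267, 198 and 171 of the gene.

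NONMMUT021642.2 lay in the 3' UTR of Lcp1, which encodes the actin-bundling protein L-plastin, and had 5559, 5462 and 7199 reads. Its gene had 6912, 6507 and 9072, so locus and gene were both highest in mOC-ABs. Within that sum a transcript of Lcp1 had 7, 3 and 5660 reads and another 4367, 4279 and 1799. Locus and gene also kept step at the 3' UTR of Wdfy2, with 1137, 867 and 1274 reads beside 846, 585 and 990, and at the end of Hipk2, a nuclear kinase, with 1280, 705 and 1618 beside 2585, 1802 and 3462. Both pairs were lowest in pOC-ABs. The 3' UTR locus of Nucks1, for a nuclear phosphoprotein, had 1498, 1164 and 1305 reads beside 1574, 1566 and 1512. The locus at the start of Hmga1b had 1306, 1323 and 1266 reads beside 1079, 1282 and 1191, level in both.

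The comparisons were those of pOC-ABs with BMM-ABs, of mOC-ABs with BMM-ABs and of mOC-ABs with pOC-ABs. They share libraries, so a library that is high or low enters 2 of them. For each locus and each gene the log2 ratio of (reads + 1) per total reads of both tables was taken, and a value above 1 or below -1 was called past 2-fold.

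In pOC-ABs against BMM-ABs, 632 members were higher and 1788 lower past 2-fold. Among the 9154 lncRNAs of any kind with 20 reads or more, 14.9% were higher and 29.6% lower, against 11.7% and 33.0% of the members. The members' median log2 ratio was -0.53 (quartiles -1.25 and 0.23) beside -0.38 over the 9154. Of 10999 protein-coding genes with 20 mRNA reads or more, 11.3% were past 2-fold in either direction. The gene was within 2-fold for 2174 of the 2420 members past 2-fold, past it in the same direction for 173 and in the other for 73. Those of the 141 members with a gene at 0 mRNA reads that were themselves past 2-fold were counted with the first. At a median of 43 reads counting error is large, and a 95% counting interval apart from equal levels was found for 540 of the higher and 1534 of the lower members. Of the members past 2-fold 26.1% were higher, a share that was 37.6% with size factors of the mRNA table and 14.0% with the total of each table in place of the total of both.

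In mOC-ABs against BMM-ABs, 306 members were higher and 2553 lower, with 6.01% and 43.7% of the 9154 lncRNAs called and 13.1% of the protein-coding genes. The median over members was -0.95 and that over the 9154, which include the members, was -0.86. The gene was within 2-fold for 2527 of these members. In mOC-ABs against pOC-ABs, 552 members were higher and 1545 lower, with 10.2% and 31.1% of the 9154 lncRNAs and 8.43% of the genes called, and the gene was within 2-fold for 1948. The median was -0.38 over members and -0.45 over the 9154. NONCODE loci with 20 reads or more over no protein-coding gene, 2224 in all, had medians of 0.03, -0.70 and -0.64 in the 3 comparisons. In 1447 members no comparison passed 2-fold.

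**Figure D1:**
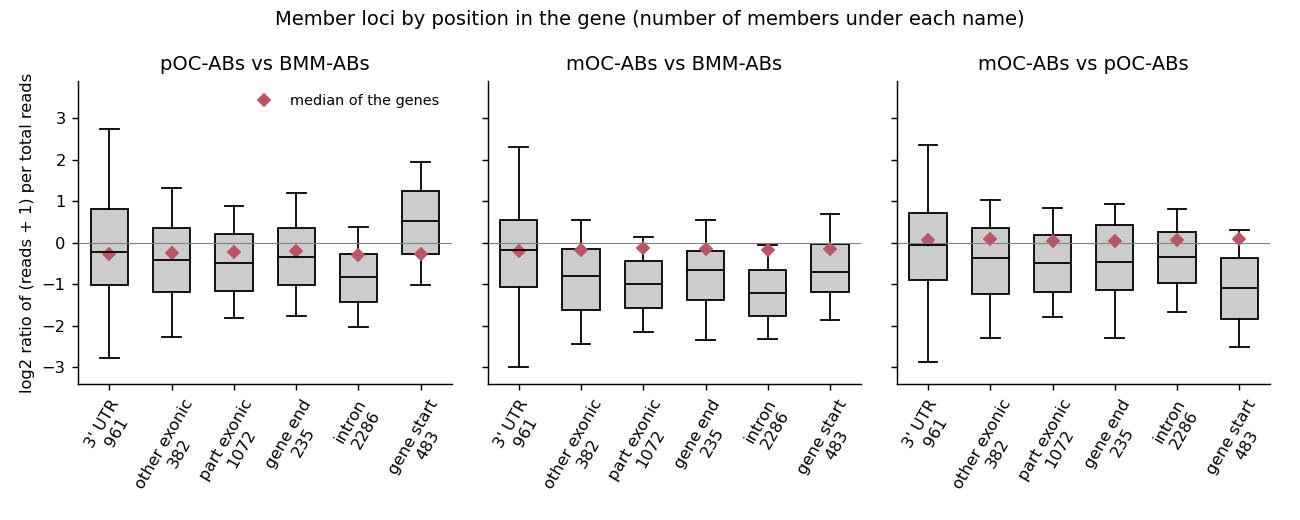
Log2 ratios of the members by position in the gene, in each comparison. Boxes show the median and quartiles and whiskers the 10th and 90th percentiles over members; diamonds show the median over the members' genes. Intron, gene end, mostly exonic and partly exonic members sat below their genes in each panel. Gene start members sat above theirs in pOC-ABs against BMM-ABs (0.52 beside -0.26) and below them in mOC-ABs against pOC-ABs.

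More intron members were lower than higher in ABs of both RANKL-treated stages than in BMM-ABs. Against BMM-ABs, 970 of 2286 were lower and 96 higher in pOC-ABs (median -0.82), and 1365 lower and 28 higher in mOC-ABs (median -1.20). Their genes had medians of -0.29 and -0.16. The median of member minus gene was -0.55 in pOC-ABs and -1.0 in mOC-ABs. Against pOC-ABs it was -0.42 in mOC-ABs, where 555 (24.3%) were lower and 177 (7.74%) higher. Over all members the median of member minus gene was -0.26, -0.74 and -0.44 in the 3 comparisons. In the last of these, 28.5% of all members were lower and 10.2% higher, so intron members did not stand apart there. Summed, the intron members had 6029, 4327 and 3796 reads per 1000000 reads of the library, and without the Zc3h7a locus 4918, 2906 and 2343. Introns made up 748 of the 1250 members that were past 2-fold higher in BMM-ABs than in both other libraries. That was 32.7% of the intron members beside 23.1% of all members. With a median of 37 reads, intron members could pass the limit of 20 reads through the library where they were high. The tally is a description.

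With each gene cut into 5 equal parts from its start, the median of intron members in pOC-ABs against BMM-ABs ran from -0.75 to -0.96, and in mOC-ABs against BMM-ABs from -1.16 to -1.30. A comparison within genes gave the same order. In 223 genes that held both an intron and a 3' UTR member, the intron member was lower than the 3' UTR member in 151 genes for pOC-ABs against BMM-ABs, in 164 for mOC-ABs against BMM-ABs and in 127 for mOC-ABs against pOC-ABs, with median differences of -0.58, -0.98 and -0.28.

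Pde4d, which encodes a cAMP phosphodiesterase, held the most members, 19, all in introns. Together they had 624, 210 and 162 reads. The mRNA of Pde4d had 477, 257 and 233. Past 2-fold, 11 of 19 were lower in pOC-ABs and 16 of 19 in mOC-ABs than in BMM-ABs, and none was higher. Over all 2286 intron members, 970 were lower and 96 higher in pOC-ABs, and 1365 lower and 28 higher in mOC-ABs. With so few intron members higher, the lack of higher ones at Pde4d does not set this gene apart. The 19 members share a gene whose own mRNA was also lower, and they are not independent. The locus with the most reads, NONMMUT019233.2, had 88, 28 and 23. Bcl6, a transcriptional repressor, had an intron member with 47, 13 and 10 reads while its mRNA had 653, 503 and 364.

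The 7 intron members with the most reads are described singly, and so few loci do not describe the deeper intron members as a group. They lay at Zc3h7a, Syt2, Pitpna, Adamts7, Nlgn1, Gm11077 and Abhd15. None was past 2-fold lower than in BMM-ABs in both stages, beside 32.7% of all intron members. Of 179 intron members with 100 reads or more in locus and gene, 5.59% were past 4-fold high in BMM-ABs alone. The share was 3.17% over all 978 members at this depth. The locus in Pitpna had 258, 346 and 325 reads, that in Adamts7 219, 250 and 454, that in Nlgn1 280, 325 and 290, and that in Gm11077 259, 261 and 258. NONMMUT002692.2, in an intron of Syt2, a gene with 0 mRNA reads in every library, had 8, 350 and 591 reads and was lowest in BMM-ABs. NONMMUT010834.2, in an intron of Abhd15, had 327, 31 and 340 reads and was low in pOC-ABs alone. The Syt2, Abhd15 and Adamts7 loci each lay over more than 1 protein-coding gene, and those at Pitpna, Nlgn1 and Gm11077 over a processed pseudogene.

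**Figure D2:**
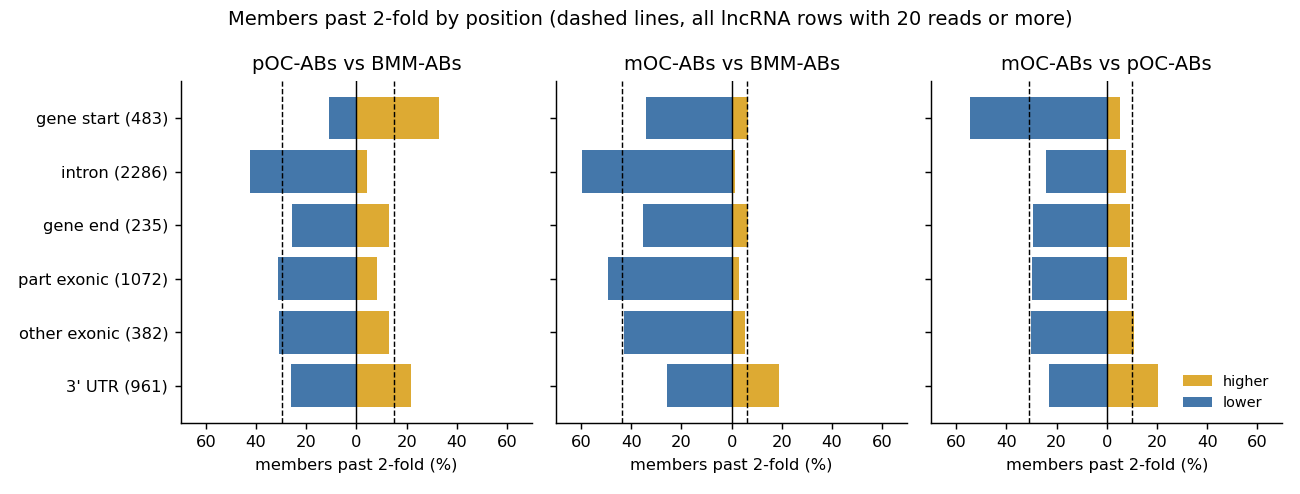
Share of members past 2-fold in each position class (higher to the right, lower to the left, in percent of the class). Dashed lines mark the shares over all lncRNAs with 20 reads or more. In pOC-ABs against BMM-ABs gene start members exceeded the line to the right (158 of 483 higher) and intron members that to the left (970 of 2286 lower).

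Members at gene starts were more often higher than lower in pOC-ABs than in BMM-ABs. Against BMM-ABs 158 of 483 were higher and 52 lower in pOC-ABs, with a median of 0.52 beside -0.26 for their genes. The median of member minus gene was 0.77, and 0.17 when each table was scaled by its own total. Against pOC-ABs 26 were higher and 263 lower in mOC-ABs, with a median of -1.08. Between mOC-ABs and BMM-ABs 32 were higher and 164 lower, with a median of -0.71. Summed, they had 969, 1269 and 693 reads on that scale. Of the 438 members that were past 2-fold higher in pOC-ABs than in both others, 135 lay at gene starts. That was 28.0% of the gene start members beside 8.08% of all members and 3.32% of intron members. This tally too depends on the limit of reads and is a description.

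The 4 loci whose promoters are printed above were chosen for being highest in pOC-ABs, and their values are a description. At Sf3b1 the member had 3, 277 and 51 reads, a log2 ratio of 6.22 (95% counting interval 5.07 to 8.92) in pOC-ABs against BMM-ABs, while the gene had 2209, 1941 and 1684 reads. At Upf3a the member had 46, 102 and 26 reads and the gene 274, 224 and 188. At Nck1 they had 36, 78 and 16, and 193, 185 and 142. At Gsk3b they had 28, 77 and 26, and 1535, 1316 and 1219. The 4 genes stayed within 2-fold in all comparisons. At Bbc3, which encodes the BH3-only protein PUMA of the apoptosis list, the gene start member had 336, 764 and 295 reads beside 653, 483 and 258 of the gene. Its ratio in pOC-ABs to BMM-ABs was 1.28 (1.10 to 1.48) and that of the gene -0.33. A member at the end of H3f3b (histone H3.3) had a like order with 168, 587 and 53 reads beside 2343, 1838 and 1495. Within the sum of that gene a transcript had 2005, 165 and 1309 reads and another 10, 1521 and 15. The H3f3b member was named after its values had been seen.

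The distance to the gene start ordered these values, in an analysis added after the values had been seen. Among single-exon members, those with a midpoint up to 1000 bases before the start had a median of 0.94 in pOC-ABs against BMM-ABs (170 loci, 79 higher and 5 lower). The median was 0.24 up to 1000 bases after the start (269 loci), 0.10 from 1000 to 2000 (236), -0.35 from 2000 to 3000 (118), -0.58 from 3000 to 5000 (180) and -0.90 from 5000 to 10000 (391). Farther in, it stayed between -0.66 and -0.76. Their genes had medians between -0.15 and -0.34 in all of these ranges. From 1000 to 5000 bases before the start it was 0.69 (33 loci). In mOC-ABs against pOC-ABs the medians ran the other way, from -1.47 just before the start to -0.16 beyond 100000 bases.

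The same held within introns, so that the class at the start and that in introns were not separate in this respect. Intron members with a midpoint within 1000 bases of the start had a median of 0.63 in pOC-ABs against BMM-ABs (21 loci), those from 1000 to 2000 bases 0.30 (46), those from 2000 to 3000 bases -0.33 (56) and those from 5000 to 10000 bases -0.95 (230).

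**Figure D3:**
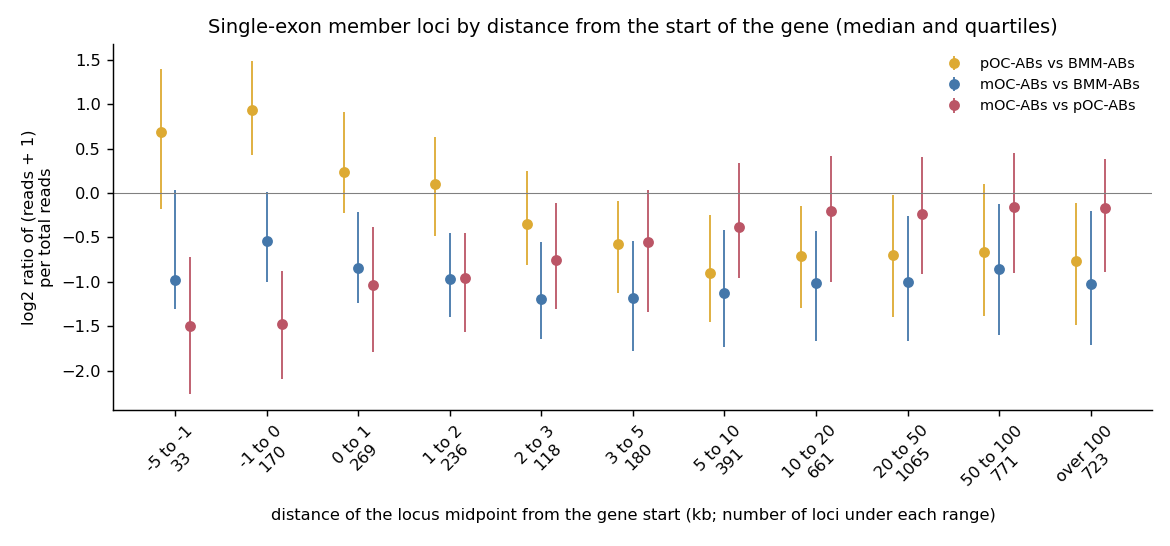
Median (points) and quartiles (lines) of the log2 ratio of single-exon members against the distance of their midpoint from the gene start, in kb, with the number of loci under each range. The pOC-ABs against BMM-ABs medians ran from 0.94 just before the start to -0.90 at 5000 to 10000 bases, while the mOC-ABs against pOC-ABs medians ran from -1.47 to -0.38 over the same ranges.

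The medians of 3' UTR members were -0.22, -0.16 and -0.04 in the 3 comparisons, and the medians of member minus gene were 0.02, 0.00 and -0.07. With each table scaled by its own total the latter were -0.58, -0.32 and 0.21. Higher and lower members were nearly balanced, with 210 and 251 in pOC-ABs against BMM-ABs, 180 and 247 in mOC-ABs against BMM-ABs, and 197 and 221 in mOC-ABs against pOC-ABs. The spread was wide, with quartiles of -1.02 and 0.81 in pOC-ABs against BMM-ABs.

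Of 978 members with 100 reads or more and a gene with 100 or more, 436 (44.6%) lay in 3' UTRs. Among those, 159, 196 and 173 members were past 4-fold in the 3 comparisons, and 115, 121 and 125 of them lay in 3' UTRs. That is 26.4%, 27.8% and 28.7% of the 3' UTR members at this depth, beside 8.94%, 21.8% and 2.23% of the intron members. When the reads of such a locus and of its gene were added, the sum stayed within 2-fold for 133 of 159, 145 of 196 and 153 of 173, beside 90.2%, 90.0% and 95.7% of all 978.

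**Figure D4:**
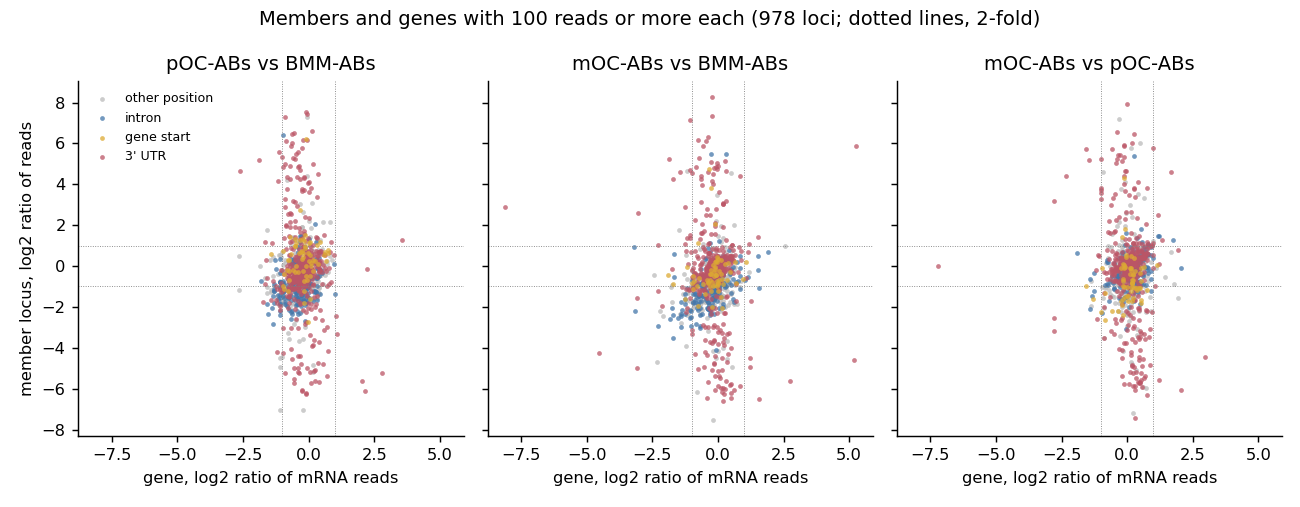
Log2 ratio of each member against that of its gene for the 978 pairs with 100 reads or more each, coloured by position; dotted lines mark 2-fold. Most genes lay between the dotted vertical lines while loci, above all those in 3' UTRs, reached from about -7.52 to 8.27 on the vertical axis.

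In some loci the locus and the gene were past 2-fold in opposite directions. There were 73, 70 and 61 such members in the 3 comparisons, 31, 37 and 28 of them in 3' UTRs, and the sum of locus and gene stayed within 2-fold for 44, 37 and 38. At Eif4ebp2, which encodes a repressor of translation initiation, the 3' UTR locus NONMMUT005824.2 (chr10:61428875-61432943) had 1793, 1236 and 17 reads and the gene 703, 479 and 1913. Locus and gene in mOC-ABs against pOC-ABs had log2 ratios of -6.06 (-6.93 to -5.46) and 2.03. At Fgf11, NONMMUT010447.2 (chr11:69796075-69798202) had 30, 714 and 1079 reads and the gene 1108, 170 and 274, so the locus was low and the gene high in BMM-ABs.

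At Scd1, which encodes a fatty acid desaturase, the locus NONMMUT034843.2 had 43, 725 and 16 reads, high in pOC-ABs alone, and the gene 2450, 1030 and 1587, lowest there. At Rab43, for a small GTPase of vesicle traffic, NONMMUT057839.2 had 441, 5 and 214 reads and the gene 93, 386 and 137. At Sh3bgrl, NONMMUT073681.2 had 209, 3 and 203 reads and the gene 416, 1590 and 521. Both loci were low in pOC-ABs where their gene was high. At Hist4h4, a histone H4 gene, NONMMUT059240.2 had 162, 3 and 2 reads and the gene 470, 3068 and 2832. There the gene had most reads in both RANKL-treated stages, and the sum did not stay level. At Ovca2 the 3' UTR locus had 107, 90 and 3 reads and the gene 2, 12 and 98, and at Inafm2 the locus had 31, 217 and 211 and the gene 302, 151 and 0. At Poldip3 NONMMUT024403.2 had 2, 10 and 379 reads, highest in mOC-ABs, and the gene 1788, 913 and 767, with log2 ratios in mOC-ABs against BMM-ABs of 7.12 (5.84 to 10.76) and -1.08. The loci at Rab43 and Ovca2 each lie over more than 1 protein-coding gene. At Ipmk, for an inositol phosphate kinase, NONMMUT006157.2 had 317, 247 and 4 reads and the gene 390, 285 and 643.

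In other loci the summed reads of the gene stayed within 2-fold. At Cdk6, which encodes a cell cycle kinase, NONMMUT117888.1 (chr5:3528428-3531003) had 56, 1 and 472 reads and the gene 1184, 1409 and 1348. Its log2 ratio in mOC-ABs against pOC-ABs was 7.92 (6.44 to 14.23) beside -0.03 for the gene. At Rab7, for a GTPase of late endosomes, NONMMUT057857.2 had 1, 351 and 1 reads and the gene 2638, 2270 and 2695. At Cd2ap, for an adaptor of the actin cytoskeleton, NONMMUT029696.2 had 1, 322 and 296 reads and the gene 1008, 901 and 777. At Mllt6 the locus NONMMUT011815.2 had 1, 290 and 558 reads and the gene 1720, 865 and 1352. Such a sum can hide its transcripts, since a transcript of Mllt6 had 1405, 66 and 319 reads and another 299, 786 and 724. The most abundant transcript of Rab7 stayed level with 1454, 1397 and 1547.

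NONMMUT023663.2, partly exonic in Fam84b, had 142, 0 and 141 reads, while its gene had 439, 357 and 283. With 3 reads taken for the 0, its level in pOC-ABs was 44.1-fold lower than in BMM-ABs. That ratio leaves out counting error in the 142 reads, and the counting interval of the log2 ratio reached up to -5.15. The library that stood apart differed from locus to locus. Among the 436 deeper 3' UTR members, 17, 21 and 9 were past 4-fold high in a single library (BMM, pOC and mOC in turn), and 23, 23 and 31 were past 4-fold low in one. In these loci the remaining libraries were within 2-fold of each other.

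**Figure D5:**
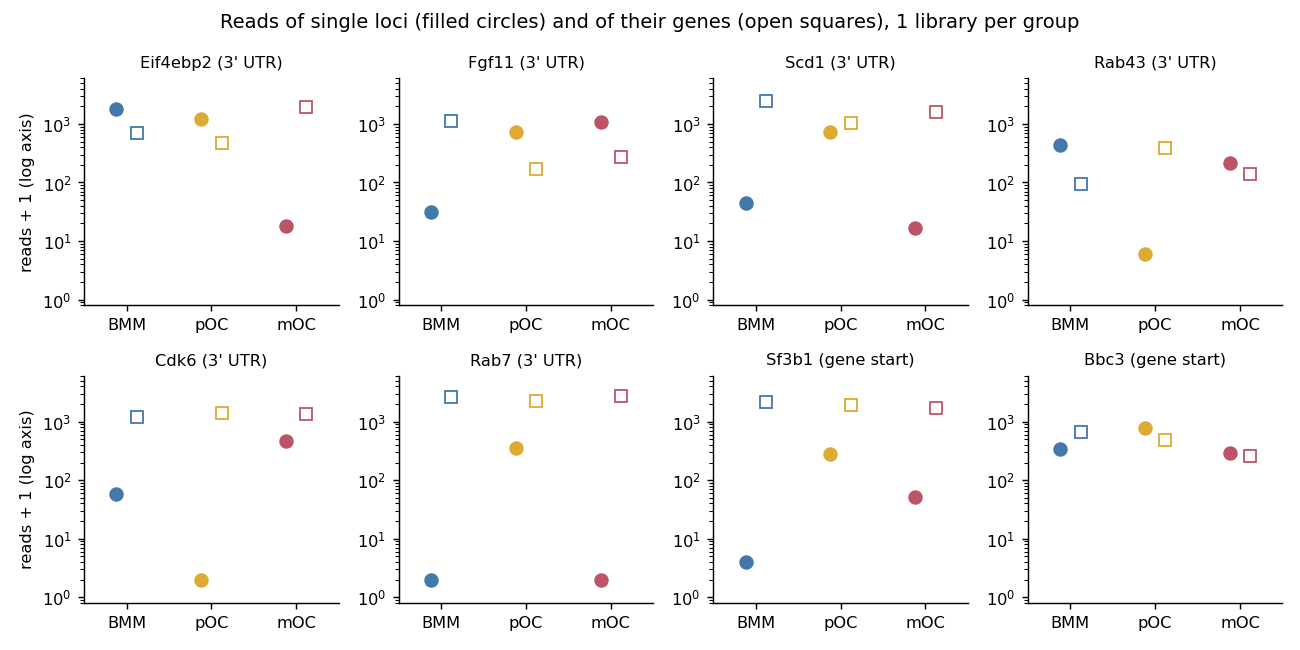
Reads + 1 on a log axis of 8 member loci (filled circles) and of their genes (open squares) in the BMM, pOC and mOC AB libraries, 1 library per group. At Eif4ebp2, Fgf11, Scd1 and Rab43 the locus and the gene were past 2-fold in opposite directions in at least 1 comparison, at Cdk6, Rab7 and Sf3b1 the gene stayed within 2-fold, and at Bbc3 the locus was highest in pOC-ABs (764 reads).

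Members of the same 3' UTR could differ in direction. In 79 genes with 2 or more 3' UTR members, 9, 7 and 8 had a member higher and another lower past 2-fold in the 3 comparisons. At Hnrnpa3, for an RNA-binding splicing factor, NONMMUT038021.2 had 96, 69 and 250 reads and NONMMUT038022.2 had 109, 54 and 43. At Hnrnpr, NONMMUT050113.2 had 24, 4 and 19 and NONMMUT050123.2 had 0, 37 and 0, while the gene had 928, 809 and 843.

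The 3' UTR loci shared a feature of mRNA ends. A polyadenylation hexamer (AATAAA or ATTAAA, on the strand of the gene) lay in the last 50 bases of 576 of 866 single-exon 3' UTR members whose end could be read from a GENCODE transcript (66.5%). It lay in the first 50 bases of 45 of 906 (4.97%). Loci in 3' UTRs with fewer than 20 reads had it in 64.8% of their last and 6.36% of their first 50 bases, so the feature was not particular to the members. Of 932 single-exon 3' UTR members, 442 (47.4%) ended within 25 bases of the annotated end of the gene. Members with the hexamer were past 2-fold in 52.6% in pOC-ABs against BMM-ABs and those without it in 37.9%, beside 44.7% of all members. The gap was narrower in mOC-ABs against BMM-ABs (47.7% and 39.0%) and in mOC-ABs against pOC-ABs (46.2% and 37.9%).

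Grouped by the role of the gene, most lists held few members. The 32 listed genes of the actin cytoskeleton and podosomes, the adhesion structures of osteoclasts, had 21 members over 12 genes. Of these, 11 were lower and 1 higher in pOC-ABs, and 14 lower and 2 higher in mOC-ABs, against BMM-ABs. Over all members 33.0% were lower and 11.7% higher in pOC-ABs, and 47.1% lower and 5.65% higher in mOC-ABs. The median of the list in mOC-ABs was -1.30 beside 0.13 for its genes, -0.95 for all members and -1.20 for intron members. At Tpm3, for a tropomyosin, an intron locus had 112, 45 and 30 reads and the gene 2734, 2309 and 2412. At Vasp, for an actin-elongating protein, a gene start locus had 220, 57 and 47 reads and the gene 3093, 2569 and 3086. The Vasp locus was highest in BMM-ABs, unlike the gene start members as a class.

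The 34 genes for SR and hnRNP splicing factors had 35 members over 21 genes. Against BMM-ABs, 6 of these members were lower and 3 higher in pOC-ABs and 9 lower and 2 higher in mOC-ABs. The shares lower over all members were 33.0% and 47.1%. The largest was a 3' UTR locus of Ptbp3 with 843, 634 and 693 reads beside 1273, 1001 and 972. The apoptosis and BCL2 family list had 18 members over 11 genes, with 11 lower and 1 higher in mOC-ABs than in BMM-ABs (median -1.24 beside -0.45 for the genes). The 3 intron loci of Bcl2l1, which encodes the survival protein BCL-XL, had 44, 20 and 9 reads, 36, 13 and 7 reads, and 43, 26 and 17 reads, while the gene had 267, 361 and 151.

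The osteoclast list had 8 members over 6 of 26 genes, 3 lower and 1 higher in mOC-ABs than in BMM-ABs, with a median of -0.43 while the genes had 0.44. The largest, in the 3' UTR of Plekhm1, a lysosome adaptor needed for bone resorption, had 1102, 581 and 998 reads and its gene 3518, 1594 and 2622, both lowest in pOC-ABs. The V-ATPase, the proton pump of the resorbing membrane, had 9 members, 5 lower and none higher in mOC-ABs than in BMM-ABs, with a median of -1.11 beside 0.19 for the genes. At Atp6v1b2 an intron locus had 17, 7 and 15 reads while the gene had 2153, 2195 and 5002 reads. Its member with the most reads, in the 3' UTR of Atp6v0a2, had 32, 27 and 53 reads beside 626, 333 and 389 of the gene. The lysosomal list had 8 members (3 lower, none higher), the macrophage list 7 (4 lower, none higher) and the ribosomal proteins 7 (3 lower, 1 higher). At Ctsd, for the lysosomal protease cathepsin D, a partly exonic locus had 87, 41 and 28 reads beside 8259, 3908 and 4527, and at Rps28, for a ribosomal protein, an exonic locus had 31, 42 and 17 beside 765, 1092 and 870. Glycolysis and interferon response had 2 each, with Pfkp (phosphofructokinase) at 303, 97 and 100 reads beside 3650, 2960 and 2312 and Tapbp (tapasin) at 29, 39 and 26 beside 2225, 1016 and 1123, and the neutrophil, lymphocyte, erythroid and stromal lists had none. The share lower over all members in that comparison was 47.1%.

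MicroRNA genes lay under 45 members, and 33 of these 50 miRNA genes matched a RefSeq entry. The mature sequences at the 3 matched loci with the most reads are given with the seed (bases 2 to 8) in capitals, to show what lies under these loci. Mature miRNAs were not measured in the libraries used here, which were made from poly(A) RNA.
mmu-miR-1894-3p: gCAAGGGAgagggugaagggag
mmu-miR-1894-5p: cUCUCCCCuaccaccugccucu
mmu-miR-1982-3p: uCUCACCCuauguucucccacag
mmu-miR-1982-5p: uUGGGAGGguccuggggagg
mmu-miR-5136: aUAUGCGAgggaacuacugg

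The 5 seeds were all different. The locus over Ppp1r10 and miR-1894 had 251, 165 and 52 reads and was lowest in mOC-ABs. NONMMUT006436.2, over Oaz1 and miR-1982, had 68, 245 and 88 reads, and the locus over Lbhd1 and miR-5136 had 58, 245 and 68. Both were highest in pOC-ABs, while Oaz1 had 368, 286 and 356 mRNA reads and Lbhd1 had 123, 167 and 130. Another member over Oaz1 and miR-1982, NONMMUT006435.2, had 23, 19 and 18 reads and was not highest there.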

How the data were processed

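The study's libraries were paired-end and made from poly(A) RNA selected on poly-T beads. The submitters' processing notes name FastQC, HISAT2, StringTie and GRCm38, with no roles given. The authors deposited a count of reads and an FPKM value for each lncRNA and each mRNA transcript and library. The FPKM of the lncRNA table fit the total of both tables and that of the mRNA table its own total, so counts were used and FPKM served as an alternative. The authors also deposited a circRNA table, not used here. No per-sample column was left unmapped.

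Loci were overlapped with GENCODE M21 protein-coding genes (1 base or more, either strand). The gene sharing the most bases was used, or at equal bases the first in order of gene identifier. Its reads were the sum of its mRNA transcripts, of which 56422 of 56651 matched. The 800 members with several exons were placed by their whole span, since the table gives no exon positions. Ratios used (reads + 1) per total reads of both tables, with a limit of 2-fold. Position classes were assigned in the order 3' UTR, intron, gene start, gene end, mostly exonic (50% of bases or more) and partly exonic. Intervals are exact binomial (Clopper-Pearson, 95%), for counting error only, since the reads carry no molecular identifiers. With 1 library per group no p-value was computed. Named were the 8 members with most reads, for each comparison the 3 furthest above and below their gene with 100 reads or more in both, the member with most reads of each gene list, and the gene with most members. Further examples were chosen after their values were seen, namely the printed promoters, pseudogenes and miRNAs, and Fgf11, Scd1, Ipmk, H3f3b, Syt2, Abhd15, Pitpna, Adamts7, Nlgn1, Gm11077, Tpm3, Vasp, Bcl2l1, Atp6v1b2, Hnrnpa3 and Hnrnpr. The members, the limits and the gene lists were chosen with earlier results of these data known. The steps were tested on simulated counts. Python 3.11.15, pandas 2.3.3, numpy 2.4.6 and scipy 1.17.1 were used.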

Additional observations from a re-analysis of the deposited data

How the results depend on the processing

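No paired analysis was possible because each group had 1 library, and for the same reason no replicate could be left out. Median-of-ratios size factors of the mRNA table shifted all ratios by 0.25, 0.24 and -0.00 (log2) in pOC-ABs against BMM-ABs, mOC-ABs against BMM-ABs and mOC-ABs against pOC-ABs, and scaling the members by the lncRNA table alone shifted theirs by -0.40, -0.22 and 0.18. With the total of each table, 421 members were higher in pOC-ABs than in BMM-ABs in place of 632, and the median of member minus gene became -0.58 in 3' UTRs and 0.17 at gene starts in pOC-ABs against BMM-ABs, and 0.21 in 3' UTRs in mOC-ABs against pOC-ABs. The intron medians kept their sign in every alternative that could be computed (from -0.36 to -1.15, -0.69 to -1.32 and -0.14 to -0.42), and so did the gene start medians (0.17 to 0.96, -0.26 to -0.80 and -0.88 to -1.33), while the 3' UTR medians lay on both sides of 0 (-0.58 to 0.19, -0.32 to 0.14 and -0.07 to 0.21).

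The counts followed the limits. The higher, lower and gene-within-2-fold counts, in the order of comparisons above, were 140, 294 and 372, then 93, 361 and 374, then 108, 237 and 318 with 100 reads or more. With no minimum of reads they were 1676, 3588 and 4730, then 926, 4952 and 5130, then 1668, 3218 and 4503. With a 4-fold limit they were 252, 540 and 775, then 175, 798 and 937, then 213, 548 and 741. With the members of a gene summed they were 398, 946 and 1182, then 198, 1463 and 1451, then 300, 978 and 1184. Of members sharing a base with an exon, 818, 1188 and 990 were lower, and 1211, 1282 and 1272 had a gene within 2-fold. In mOC-ABs against pOC-ABs a pseudocount of 5 reads left 333 higher and 1274 with a gene within 2-fold, and the counting interval left 338 higher. Lower members outnumbered higher ones in each comparison under each of these settings. Among all counts of members, 46 values moved by over 1.5 times and 59 did not, and no member named by the rule that was past 2-fold changed direction. The number of reads limits single members, of which the median had 43.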

Other observations

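The genes with many members differed among themselves. The 16 members of Foxp1, a transcription factor gene, had 354, 248 and 182 reads (BMM, pOC and mOC in turn), and its mRNA had 695, 627 and 674. The 10 members of Zeb2, a transcriptional repressor of the myeloid lineage, had 637, 322 and 188 reads beside 3556, 2388 and 1855, and the 10 of Arl15, all in introns, had 204, 63 and 74 beside 120, 178 and 85. The 8 members of Arid1b, for a chromatin remodelling subunit, had 260, 75 and 84 reads beside 2490, 1411 and 2153. The 9 intron members of Gm20388 had 312, 345 and 193 reads with 0 of the gene, and in pOC-ABs against BMM-ABs 3 were past 2-fold higher and none lower. The 11 intron members of Fgfr2 had 460, 398 and 322 reads while the mRNA of Fgfr2 had 0 in every library. Fgfr2 and Gm20388 were annotated over 2960900 and 4434882 bases, so their members may also lie in other genes. The protein-coding genes under each member were counted, but the counts are not broken down here for these genes. The 8 members of Pip5k1b, for a phosphoinositide kinase, had 183, 106 and 175 reads while its mRNA had 679, 793 and 1801.

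Among partly exonic members the medians were -0.48, -1.0 and -0.49 in pOC-ABs against BMM-ABs, mOC-ABs against BMM-ABs and mOC-ABs against pOC-ABs. In mOC-ABs against BMM-ABs 530 of 1072 were lower and 30 higher, and 164 of 382 mostly exonic members were lower and 21 higher. At the gene end 83 of 235 were lower and 15 higher in that comparison.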
